A study of Mus musculus with 6 samples.

Results

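Cholesterol and fatty acid synthesis was followed through 35 genes, a list of enzymes, regulators and transport genes named by their role in the pathway. No threshold on their values was used, but the list was chosen with earlier results of these data known. Its shares beside those of all genes are therefore descriptions. Of the 35 genes, 34 were matched to a measured gene, out of 23279 genes tested, and Acat2 was not analysed here. Whole livers of mouse embryos at embryonic day 11.5 were profiled on 6 Affymetrix arrays, 3 per group. One group is labelled as the Gata4 knockout with Stab2-Cre, a Cre driven by a gene of sinusoidal endothelium, the lining of liver capillaries. The control group is labelled Gata4 heterozygous with the same Cre, so both groups carry Stab2-Cre. Per the labels, both came from crossing Stab2-Cre;Gata4 fl/wt with Gata4 fl/fl mice, so at least 1 floxed Gata4 allele is shared by all embryos; the floxed allele is Gata4tm1.1Sad. Values are log2 expression; a difference of 1 is a doubling. Each is given as livers labelled knockout minus control, and a gene was called at an adjusted p under 0.05 in a limma fit over all genes.

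Cells make cholesterol from acetyl-CoA. The mevalonate steps build isoprenoid units, Fdft1 joins them into squalene, and a second series of enzymes closes and trims the rings. The membrane-bound SREBP transcription factors (Srebf1, Srebf2) switch on these enzymes when sterols run low. Scap escorts SREBP to the Golgi for cleavage, and Insig1 and Insig2 hold the complex back in the endoplasmic reticulum when sterols are plentiful. The same factors drive fatty acid synthesis, and hepatocytes are a main site of both pathways.

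The label and tissue checks bear on every direction below. In livers labelled knockout Gata4 was not lower but higher, by 0.51 (SE 0.12; adjusted p = 0.0409 in limma). The Cre acts in Stab2-lineage endothelium while the RNA is of the whole liver, and whether the probes cover the deleted exons is not known here, so directions rest on the labels. Stab2, the gene whose promoter drives the Cre, was lower in livers labelled knockout, with groups apart (8.11 ± 0.11 in controls, 6.82 ± 0.44, n = 3 each; −1.30, SE 0.20, limma adjusted p = 0.0161). The fetal liver markers Alb and Afp read between 13.29 and 13.51 on all 6 arrays. That is near the highest value of each array (13.91), so these 2 genes can hardly show a change in hepatoblast content. Xist, the transcript of the silenced X of females, read at least 10.19 in every liver labelled knockout but among controls in replicate 2 only (3.58 and 3.96 in the others). Differences from control replicate 2 alone are therefore given for the role groups, the called members and those moved over 1.5-fold; they equal the differences in a fit with a sex term. Markers of heart, a neighbouring tissue, were uneven, with a list median against the control mean of 1.43 in control replicate 2, 0.48 in labelled knockout replicate 3 and −1.25 to −0.12 elsewhere. In bulk tissue, fewer cells of a type and less RNA per cell cannot be told apart.

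Of the 11 enzymes from squalene synthesis onward 4 were higher in livers labelled knockout, as was the lipoprotein receptor gene Vldlr. Of 34 members, 5 were called higher (Fdft1, Lss, Msmo1, Sc5d and Vldlr) and 0 lower in the limma fit, while 29 did not pass. That is 14.7% of members called higher, against 3.59% of all genes tested (6.36% in either direction and 2.77% lower). At an unadjusted p under 0.05, 16 members were higher and 1 lower; of all genes 11.1% were higher and 11.5% lower at that level, and of the brighter genes 17.5% were higher. All 34 members read above the array median of 5.43, and among genes brighter than the median gene 6.36% were called higher. The median difference over the members was 0.23 (0.21 against control replicate 2 alone), beside −0.01 over all genes, and 28 members had a positive difference. In 16 members (47.1%) every liver labelled knockout read above every control, as did 13.0% of all genes and 19.2% of the brighter ones. The reverse held for 1 member, Ebp, and for 14.3% of all genes. The plot of differences in pathway order shows that the calls lie among the squalene and sterol steps, with Vldlr apart.

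**Figure D1:**
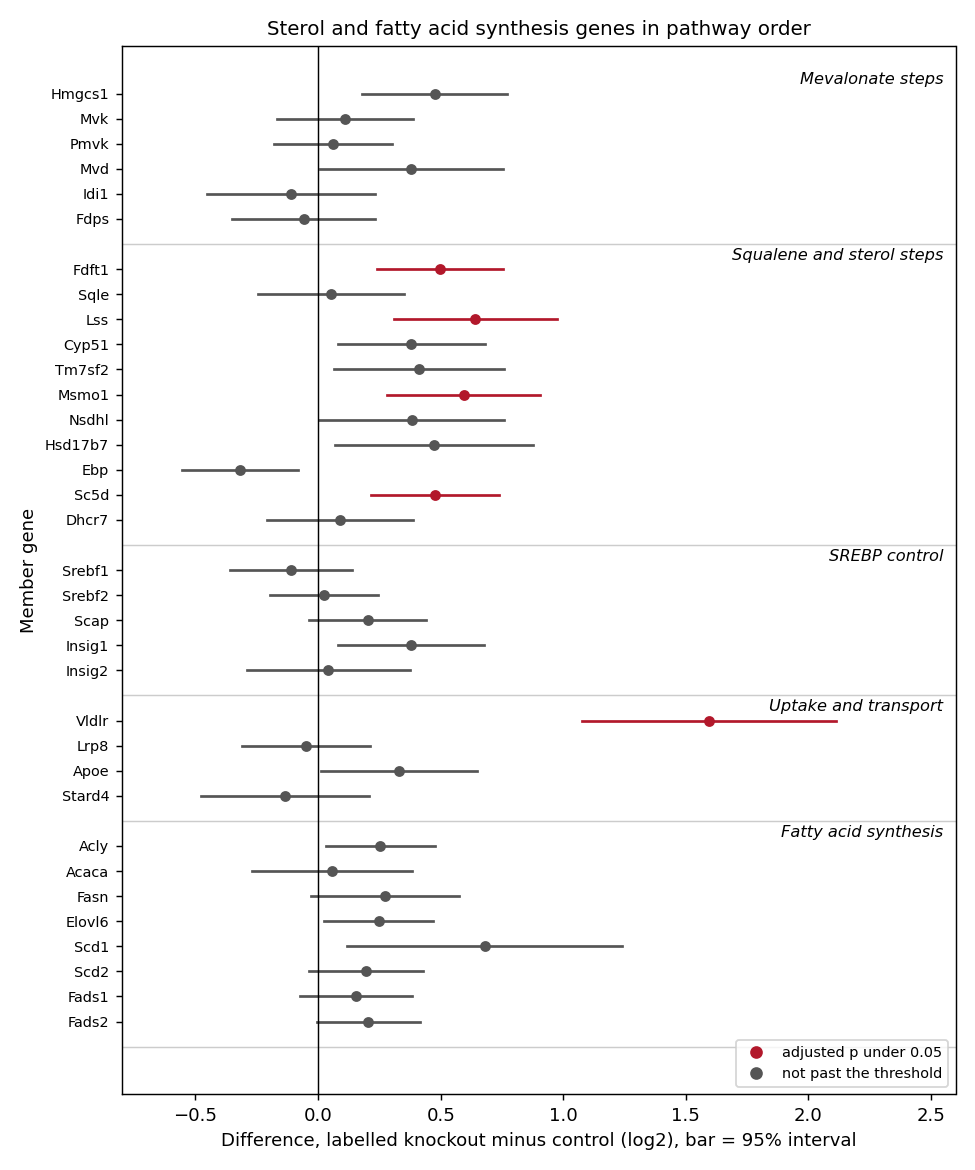
Difference between livers labelled knockout and controls (log2, x axis) for the 34 measured members in pathway order, with 95% intervals from the limma fit. The 5 called members are red: Fdft1, Lss, Msmo1 and Sc5d at 0.48 to 0.64, and Vldlr at 1.59; the lowest value is that of Ebp at −0.32.

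SREBP is known to act beside the factor NF-Y, which binds CCAAT, so the promoters of the members were read for such motifs. RefSeq windows on GRCm38.p6, from 250 bases before to 50 after each start, matched 27 of the 34 members. The members not matched were Fdps, Fdft1, Sqle, Stard4, Scd1, Scd2 and Fads1. A gene counted if any of its windows held the motif, and shares of tested genes are over the 17466 with a window. Shares among the brighter genes were not computed. CCAAT, on either strand, was found in 14 of 14 sterol enzymes with a window, against 41.9% of tested genes and 37.4% of all windows. In the other role groups it was found in 4 of 5 SREBP control genes, 1 of 3 uptake genes and 2 of 5 fatty acid genes. The GC box GGGCGG was in 13 of 14 sterol enzymes (49.8% of tested genes, 35.7% of windows). The sterol element, searched only in the form TCACNCCAC, was in 1 of 27 members, Hmgcs1 (1.43% of tested genes, 1.24% of windows). Other forms of the element were not searched, so members without this match cannot be said to lack it. The E-box CACGTG, which holds the hypoxia core ACGTG on both strands, was in 5 of 27 (9.21% of tested genes, 7.15% of windows). ACGTG itself was in 7 of 27 members (25.9%), beside 23.8% of tested genes and 19.6% of windows. It was in 9 of 12 hypoxia response genes, and in neither window of Vldlr.

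The stretches shown here are the 220 bases before the start, 5′ to 3′ on the gene's strand, on GRCm38.p6. They were picked after the values were seen. Lss (chr10:76531385-76531604, plus strand), Msmo1 (chr8:64733579-64733798, minus) and Sc5d (chr9:42264301-42264520, minus) are called sterol enzymes. Hmgcs1 (chr13:119690131-119690350, plus) holds the sterol element. Insig1 (chr5:28071192-28071411, plus) is the feedback gene. Ebp (chrX:8193513-8193732, minus) had the lowest difference. Capitals mark the motifs named above, on either strand.
Hmgcs1: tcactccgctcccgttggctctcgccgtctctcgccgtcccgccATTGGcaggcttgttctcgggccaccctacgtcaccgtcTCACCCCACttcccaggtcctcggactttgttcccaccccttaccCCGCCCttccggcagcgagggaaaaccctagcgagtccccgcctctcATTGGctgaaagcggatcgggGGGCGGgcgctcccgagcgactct
Lss: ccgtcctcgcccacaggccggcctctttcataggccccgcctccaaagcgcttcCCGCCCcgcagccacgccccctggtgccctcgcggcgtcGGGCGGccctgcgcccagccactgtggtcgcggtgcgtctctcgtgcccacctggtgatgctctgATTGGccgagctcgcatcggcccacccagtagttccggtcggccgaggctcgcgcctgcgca
Msmo1: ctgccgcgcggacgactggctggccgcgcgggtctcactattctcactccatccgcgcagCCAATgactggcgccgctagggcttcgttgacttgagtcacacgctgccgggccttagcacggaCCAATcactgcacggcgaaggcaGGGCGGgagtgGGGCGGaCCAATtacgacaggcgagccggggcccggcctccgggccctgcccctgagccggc
Sc5d: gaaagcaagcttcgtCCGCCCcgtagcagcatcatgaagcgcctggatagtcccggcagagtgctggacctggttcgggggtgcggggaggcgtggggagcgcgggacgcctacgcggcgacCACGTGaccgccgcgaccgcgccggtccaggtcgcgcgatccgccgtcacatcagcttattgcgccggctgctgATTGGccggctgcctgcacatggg
Insig1: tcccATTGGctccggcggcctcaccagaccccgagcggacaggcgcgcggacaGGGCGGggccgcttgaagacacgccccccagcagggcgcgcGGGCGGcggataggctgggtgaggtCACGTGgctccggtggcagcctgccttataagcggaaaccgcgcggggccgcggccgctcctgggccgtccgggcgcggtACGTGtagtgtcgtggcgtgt
Ebp: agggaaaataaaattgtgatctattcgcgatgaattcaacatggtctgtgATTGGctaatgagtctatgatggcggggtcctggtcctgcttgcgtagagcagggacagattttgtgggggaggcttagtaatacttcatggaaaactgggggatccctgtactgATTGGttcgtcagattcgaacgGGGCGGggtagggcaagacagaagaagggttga
All 6 stretches hold CCAAT and GGGCGG on at least 1 strand. Over the full windows, Hmgcs1 has 4 CCAAT matches, Msmo1 has 3, and Lss, Sc5d and Insig1 have 1 each. Ebp, whose values went the other way, has 2. A match is a description of these letters, not a bound site.

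Among the mevalonate steps, no gene of 6 was called. In 2 the groups did not overlap, with livers labelled knockout higher (13.0% of all genes, 19.2% of the brighter ones). At an unadjusted p under 0.05, 2 of 6 were higher and 0 lower (all genes: 11.1% and 11.5%), and the median difference was 0.08 (0.19 against control replicate 2 alone). Hmgcs1, which makes HMG-CoA, read 11.02, 11.18 and 11.49 in livers labelled knockout and 10.80, 10.72 and 10.75 in controls. The groups do not overlap, and the gap between them is narrowest at labelled knockout replicate 1. The difference was 0.48 (SE 0.13, limma adjusted p = 0.0687). It passed without labelled knockout replicate 1 (adjusted p = 0.0432), with a variance trend (0.0288), and where only the brighter 50% of genes entered the fit (0.0414), and reached at most 0.316, with a sex term.

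Mvd, the decarboxylase that ends the mevalonate branch, read 8.09, 8.12 and 8.63 in livers labelled knockout against 8.07, 7.84 and 7.79 in controls. Replicate 3 of the livers labelled knockout stands above the rest, and the difference of 0.38 (SE 0.16) did not pass (adjusted p = 0.214). The kinases Mvk (0.11) and Pmvk (0.06) had intervals that span 0; against control replicate 2 alone they differed by 0.22 and 0.10. Idi1, the isoprenoid isomerase, read 6.18, 6.12 and 5.86 against 6.39, 5.88 and 6.22. Fdps, which makes farnesyl diphosphate, read 5.75, 5.84 and 6.19 against 6.02, 5.99 and 5.94. Both are the dimmest members, with overlapping groups and differences of −0.11 and −0.06 (95% intervals −0.45 to 0.23 and −0.35 to 0.23). Against control replicate 2 alone Idi1 turned to 0.17, while Fdps stayed at −0.07.

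From squalene onward, 4 of 11 enzymes rose and 0 fell, 10 had positive differences, and the median was 0.41 (0.56 against control replicate 2 alone). At an unadjusted p under 0.05, 8 of 11 were higher and 1 lower (all genes: 11.1% and 11.5%). Fdft1, squalene synthase and the first step committed to sterols, read 11.23, 11.28 and 11.46 in livers labelled knockout and 10.91, 10.67 and 10.91 in controls. It rose 1.41-fold (0.50, SE 0.11, limma adjusted p = 0.0404), and each liver labelled knockout was above each control. Lss, which closes squalene epoxide into lanosterol, read 9.77, 9.82 and 10.21 against 9.42, 9.11 and 9.36. It rose 1.56-fold (0.64, SE 0.14, adjusted p = 0.0407), with control replicate 2 lowest and labelled knockout replicate 3 highest.

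Msmo1, the methyl sterol oxidase, read 10.45, 10.48 and 10.90 in livers labelled knockout against 10.08, 9.91 and 10.06. The rise was 1.51-fold (0.59, SE 0.14, limma adjusted p = 0.0428). Sc5d, a desaturase near the end of the pathway, read 9.49, 9.54 and 9.82 against 9.21, 9.06 and 9.15. It rose 1.39-fold (0.48, SE 0.11, adjusted p = 0.0479). In both, the 3 controls lie within a narrow band below all livers labelled knockout.

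The 4 calls lie near the threshold. Those of Fdft1 and Sc5d were lost in each of the 6 fits without 1 array (adjusted p from 0.0519 to 0.121 and from 0.0523 to 0.145), while the differences stayed between 0.38 and 0.55. Lss and Msmo1 passed without labelled knockout replicate 1 (adjusted p = 0.0440 and 0.0449) and in no other such fit, where they reached 0.123 and 0.132. With a sex term none passed (adjusted p = 0.174 for Fdft1, 0.179 for Lss, 0.224 for Msmo1 and 0.238 for Sc5d). Control replicate 2 read the lowest of the controls in each of these 4 genes. Against that array alone the differences were therefore larger, at 0.66, 0.83, 0.70 and 0.56.

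Of the other sterol steps, Cyp51, the lanosterol demethylase (0.38), the reductase Tm7sf2 (0.41) and Hsd17b7 (0.47) had groups that did not overlap but did not pass (adjusted p = 0.129, 0.152 and 0.156). Against control replicate 2 alone Hsd17b7 differed by 0.79. Tm7sf2 passed without labelled knockout replicate 2 (adjusted p = 0.0424). Nsdhl, an X-linked sterol dehydrogenase, had overlapping groups (0.38, SE 0.16, adjusted p = 0.215) and a difference of 0.66 against control replicate 2 alone. Sqle, the epoxidase that is a known control point, read 9.30, 9.27 and 9.67 in livers labelled knockout and 9.23, 9.42 and 9.42 in controls. Its groups overlap, and the 95% interval of the difference runs from −0.24 to 0.35 (−0.01 against control replicate 2 alone). Dhcr7, which makes the last double-bond reduction, differed by 0.09 (−0.21 to 0.39).

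Ebp, the X-linked sterol isomerase, ran the other way. It read 8.23, 8.38 and 8.28 in livers labelled knockout and 8.74, 8.47 and 8.63 in controls, the only member with all livers labelled knockout below all controls. The difference of −0.32 (SE 0.10) did not pass (limma adjusted p = 0.112). It was −0.18 against control replicate 2, the Xist-high control, and −0.39 to −0.26 in the fits without 1 array. Sqle and Ebp were given array by array because of their values.

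**Figure D2:**
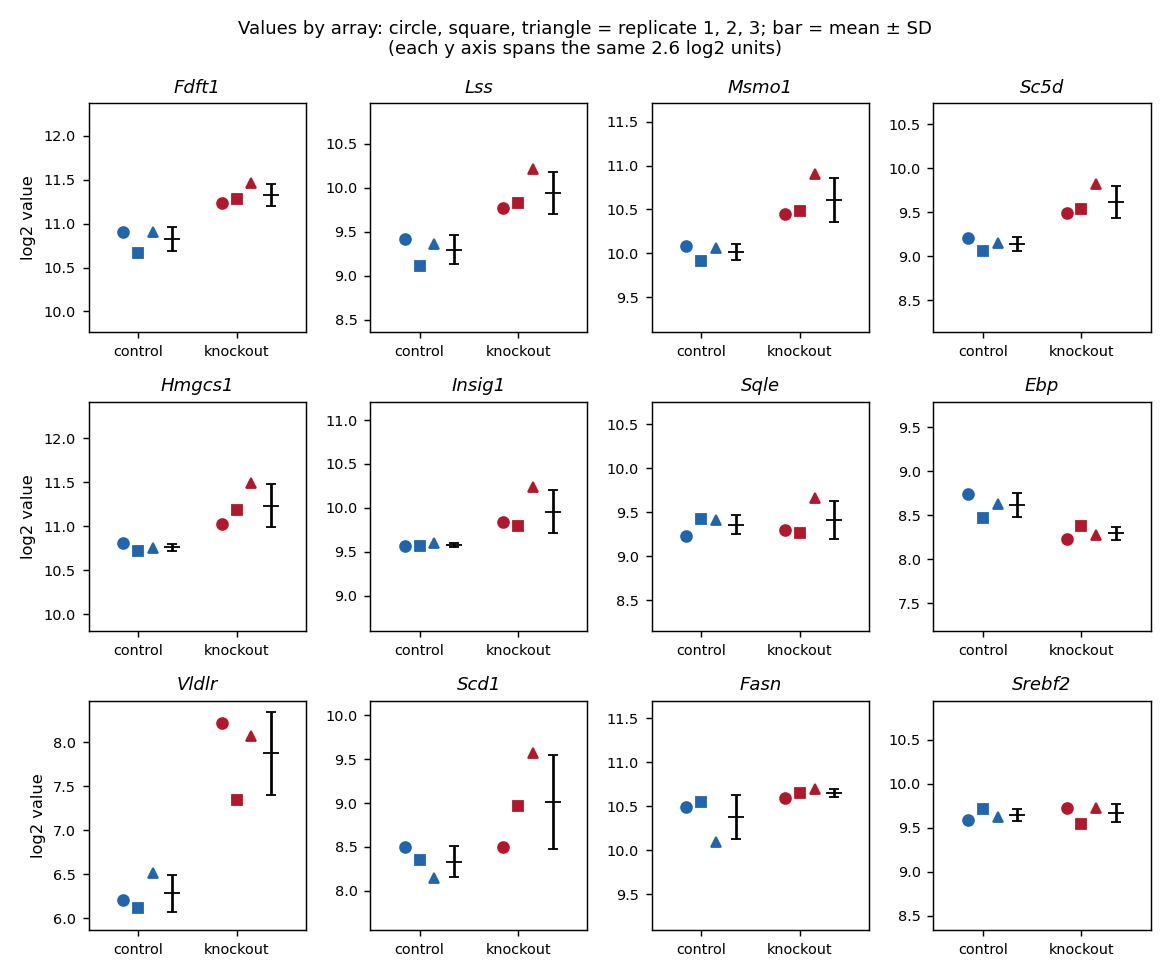
Log2 values (y axis, each panel spanning the same range) of 12 members on each array, controls in blue and livers labelled knockout in red, with mean ± SD over 3 arrays. The groups are apart for Fdft1, Lss, Msmo1, Sc5d, Hmgcs1, Insig1, Vldlr and Fasn, apart in the other direction for Ebp, and overlap for Sqle, Scd1 and Srebf2.

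Of the 5 SREBP control genes none was called. At an unadjusted p under 0.05 in limma, 1 was higher and 0 lower (all genes: 11.1% and 11.5%). The median difference was 0.04, or 0.15 against control replicate 2 alone. The genes of the factors themselves differed little: Srebf2, the main activator of cholesterol genes, by 0.02 (95% interval −0.20 to 0.25) and Srebf1, the main activator of fatty acid genes, by −0.11 (−0.36 to 0.14). Against control replicate 2 alone they were −0.05 and −0.20. These are transcript levels, and cleavage of the proteins was not measured. Insig1, itself a known SREBP target, read 9.84, 9.79 and 10.24 in livers labelled knockout and 9.57, 9.56 and 9.60 in controls. The controls differ by under 0.05, and all livers labelled knockout lie above them. The difference was 0.38 (SE 0.13, limma adjusted p = 0.130). Its relative Insig2 differed by 0.04 (−0.29 to 0.37), or 0.15 against control replicate 2 alone. Scap read 10.07, 9.86 and 10.07 against 9.89, 9.79 and 9.71, with overlapping groups and a difference of 0.20 (adjusted p = 0.305).

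Among uptake and transport genes, 1 of 4 rose, 0 fell and 3 did not pass; the median difference was 0.14 (0.15 against control replicate 2 alone). Vldlr encodes a receptor for triglyceride-rich lipoproteins and reelin. It read 8.22, 7.34 and 8.07 in livers labelled knockout against 6.21, 6.12 and 6.52 in controls. The groups are far apart, with replicate 2 the lowest of the livers labelled knockout. The rise was 3.02-fold (1.59, SE 0.22, limma adjusted p = 0.0132). It missed the threshold without replicate 3 of either group (adjusted p = 0.0526 for the livers labelled knockout, 0.0537 for the controls) and with a sex term (0.154). The difference stayed between 1.42 and 1.86 without any 1 array and was 1.76 against control replicate 2 alone.

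The related reelin receptor Lrp8 differed by −0.05 (95% interval −0.31 to 0.21), an interval that lies below that of Vldlr (1.08 to 2.11); against control replicate 2 alone it was −0.14. Vldlr is also known as a gene induced by low oxygen, and hypoxia response genes moved with it. Of 13 such genes, 10 were called higher and 0 lower (median 0.81), among them Vegfa (1.29), P4ha1 (0.73), Kdm3a (0.69) and Ddit4 (1.80). That list's median was 0.99, 0.62 and 0.91 in labelled knockout replicates 1, 2 and 3. Replicate 2, where Vldlr was lowest, also had the lowest hepatoblast, endothelial, mesenchymal, macrophage and erythroid medians of its group. Among the role groups of members, its median was the lowest for all but the fatty acid genes. The part of the hypoxia response in the Vldlr difference was not tested.

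Apoe, the apolipoprotein ligand of both receptors, read 11.88, 11.43 and 11.92 in livers labelled knockout and 11.39, 11.43 and 11.42 in controls. Replicate 2 of the livers labelled knockout sits at the control level and the other two above it (0.33, SE 0.14, limma adjusted p = 0.207). Without that replicate it passed (adjusted p = 0.0375). Apoe is also made by macrophages, whose markers were lower. Stard4, a cytosolic sterol carrier and known SREBP target, differed by −0.13 (−0.48 to 0.21), or −0.02 against control replicate 2 alone.

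All 8 fatty acid genes had positive differences (0.06 to 0.68, median 0.23, and 0.18 against control replicate 2 alone), but none was called. At an unadjusted p under 0.05, 3 of 8 were higher and 0 lower (all genes: 11.1% and 11.5%). Scd1, a desaturase that makes oleate, read 8.50, 8.96 and 9.57 in livers labelled knockout and 8.50, 8.35 and 8.14 in controls. The livers labelled knockout spread widely, and replicate 1 is at the level of control replicate 1. The difference was 0.68 (SE 0.24, limma adjusted p = 0.145), or 0.66 against control replicate 2 alone. Scd1 passed without labelled knockout replicate 1 (limma adjusted p = 0.0406). Acly, which supplies cytosolic acetyl-CoA, read 10.92, 11.01 and 11.13 against 10.84, 10.77 and 10.69. Its groups are apart by a small margin (0.25, SE 0.10, adjusted p = 0.165).

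The groups were apart as well for the synthase Fasn (0.27), the elongase Elovl6 (0.25) and the desaturases Fads1 (0.15) and Fads2 (0.20). With Acly, 5 of 8 did not overlap, livers labelled knockout higher, beside 13.0% of all genes and 19.2% of the brighter ones. Against control replicate 2 alone the difference was 0.10 for Fasn, 0.12 for Fads2 and −0.16 for the carboxylase Acaca, which was 0.06 over all controls. Scd2, the desaturase isoform, is the brightest member and read 12.91, 13.17 and 13.08 against 12.92, 12.84 and 12.81. Its groups overlap (0.20, adjusted p = 0.314). Control replicate 3 was the lowest control in 8 of 8 fatty acid genes, as for 34.6% of all genes.

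The members varied together between livers of 1 group. Labelled knockout replicate 3 was the highest of its group in 28 of 34 members (82.4%) and in 15 of 17 sterol enzymes, as against 30.3% of all genes tested. Among controls, replicate 2 was the lowest in 11 of 17 sterol enzymes (64.7%), against 33.7% of all genes. Over the squalene and sterol steps the median distance from the control mean was 0.35, 0.34 and 0.64 in labelled knockout replicates 1, 2 and 3, and 0.07, −0.11 and 0.06 in the controls. The heat map shows the same column as the highest of its group in most rows. Exceptions include Idi1, where it was the lowest of its group, Ebp and Vldlr. Without labelled knockout replicate 3, 0 members were called by limma (7 higher and 1 lower at an unadjusted p under 0.05), and the median over all members was 0.19. Without control replicate 3 the number called was also 0 (11 and 1), with a median of 0.17. Calls over all genes fell as well, from 6.36% with all arrays to 1.13% and 0.18% in these fits.

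**Figure D3:**
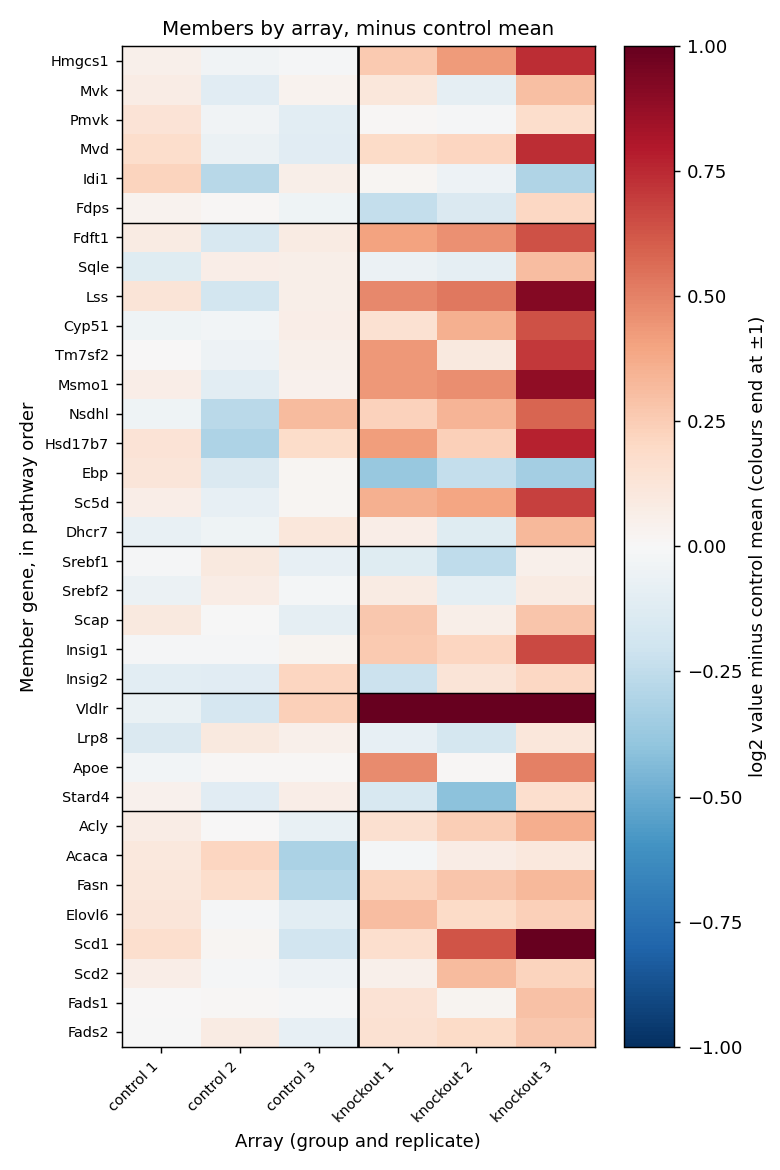
Each member (row, in pathway order) on each array (column), as log2 value minus their mean in controls; red is higher, blue lower, and colours end at ±1. Labelled knockout replicate 3 is the highest of its group in 28 of 34 rows, and the Ebp row is blue in all 3 livers labelled knockout.

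Genes of connected pathways were mostly not called. For the counts below, 11.1% of all genes were higher and 11.5% lower at an unadjusted p under 0.05 in limma. None passed among 11 genes of SREBP processing and its partners (0 higher and 1 lower at an unadjusted p under 0.05 in limma), 9 of the isoprenoid branches (0 and 2), 13 of sterol storage, lipoproteins and bile acids (1 and 1) and 22 of further fatty acid and glycerolipid synthesis (2 and 1). Their medians were 0.04, −0.07, 0.07 and 0.07, and against control replicate 2 alone 0.09, 0.06, 0.07 and 0.15, so that the isoprenoid median changed sign. Among 9 genes of LXR and sterol efflux, 2 fell. Nr1h3, the sterol-sensing nuclear receptor LXR-alpha, read 6.49, 6.16 and 6.64 in livers labelled knockout and 7.57, 7.45 and 7.58 in controls. Its groups are far apart (−1.11, SE 0.13, limma adjusted p = 0.0096; up to 0.0537 without 1 array). The cholesterol exporter Abcg1 fell by 0.55 (SE 0.11, adjusted p = 0.0295), a call that held in 1 of 6 such fits. Both are abundant in macrophages, whose markers were lower, and the part of that in these falls was not tested. Of 11 fatty acid oxidation genes, 1 rose, the coactivator Ppargc1a (0.60, adjusted p = 0.0474), a call lost in all 6 fits.

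Markers of several liver cell types differed between the groups. Hepatoblast markers had a median difference of 0.35 (1 of 13 called higher), with 0.44, 0.04 and 0.46 in labelled knockout replicates 1, 2 and 3. Their summed signal was 28880.0 to 29200.8 in controls and 29268.6 to 32650.2 in livers labelled knockout. The squalene and sterol median was 0.35, 0.34 and 0.64 in labelled knockout replicates 1, 2 and 3. Mesenchymal and mesothelial markers had a median of 0.52 (3 of 11 higher; summed signal 5317.9 to 6086.1 in controls, 8412.3 to 9085.6 in livers labelled knockout).

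Of 9 endothelial markers, the lineage in which the Cre acts, 3 rose and 2 fell. Pecam1 (0.63), Cdh5 (0.53) and Emcn (1.00) were higher, and the sinusoidal genes Stab2 (−1.30) and Lyve1 (−1.14) lower. The list median was 0.19 (summed signal 4470.8 to 4958.0 in controls, 4803.4 to 6078.3 in livers labelled knockout), or 0.09 against control replicate 2 alone.

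Macrophage markers fell in 10 of 11 cases (median −1.31; summed signal 2583.0 to 3352.1 against 1178.4 to 1583.8). Erythroid markers fell in 5 of 9 (median −0.80; 12355.4 to 15938.2 against 9425.6 to 10776.4), and no marker is at 0 on this scale. The part of these shifts in the members' differences was not tested. The plot of list medians by array sets them side by side.

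**Figure D4:**
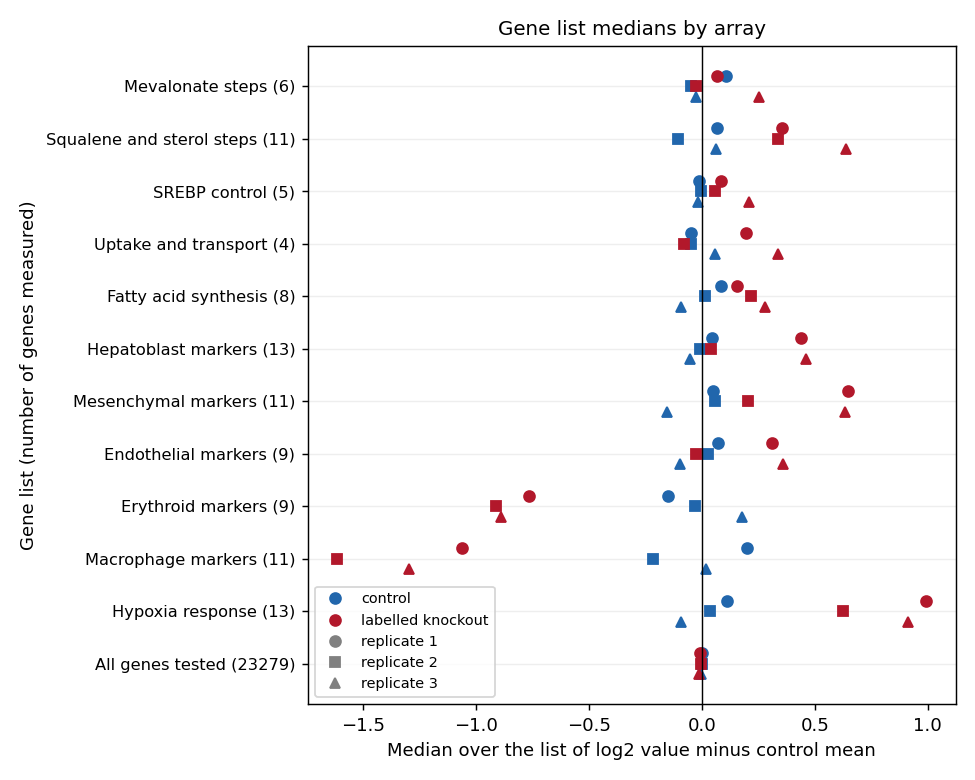
List medians (x axis, log2 distance from the mean of the controls), by array, for the 5 role groups of members, 5 marker lists, hypoxia response genes and all genes tested. The squalene and sterol steps lie at 0.34 to 0.64 in livers labelled knockout, where hepatoblast markers span 0.04 to 0.46 and macrophage markers −1.61 to −1.06.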

How the data were processed

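Total RNA of 6 whole fetal livers was hybridised to Affymetrix arrays. The deposited values are log2 expression. The submitters' processing notes name RMA, which corrects background, quantile-normalises and summarises probes; its version, the chip definition and the build were not given in the sources used here. Sorted values are the same in all arrays (median 5.43), so a change in total RNA cannot be seen. The number of arrays limits the precision. GEO's platform annotation, with symbols updated from RefSeq, gave a name to 23281 of 24479 features; 1198 had no name here. Of 2 features with 1 symbol the brighter was kept, leaving 23279 genes. Groups come from the sample titles, which call the replicates biological; whether embryos were pooled or shared a litter was not stated.

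Genes were fitted with limma 3.58.1 in R 4.3.3 (lmFit, eBayes, no trend, no covariate, 4 residual and 4.06 prior degrees of freedom), with Benjamini-Hochberg adjustment over all genes. SDs and SEs are over n = 3 arrays per group; summed signals add 2 to the power of the log2 values. An exact permutation test of 3 against 3 cannot go below p = 0.1. The fit and the motif search were tested on simulated data. Array values are given for called members, the 2 with the smallest p in each role group, and the 2 brightest and 2 dimmest; others are named as exceptions. The members and lists were chosen with earlier results of these data known. Alternatives were a variance trend, robust eBayes, another centring, filters on dim genes, the replicate block, a sex term, other thresholds and leaving out each array.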

Additional observations from a re-analysis of the deposited data

How the results depend on the processing

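The 5 called members also passed with a variance trend, with robust eBayes, after centring on the brighter genes and without the dimmest 25% or 50% of genes. Without 1 array, the number of members called higher ran from 0 to 5 and that of all genes from 41 to 1395; each such fit has fewer arrays. With the replicate number as a block, 1 member (Vldlr) and 686 genes were called. The labels do not say that the numbers pair the arrays, and deviations of same-numbered arrays correlated at −0.05, −0.01 and −0.08. With 3 arrays per group, these correlations cannot show whether same-numbered embryos shared a litter. With a sex term, limma called 0 members (8 higher and 0 lower at an unadjusted p under 0.05) and 3 genes; that fit compares the livers labelled knockout with control replicate 2 alone. An adjusted p of 0.1 gave 2700 genes and 6 members, and a fold change of at least 1.5 gave 926 genes and 3 members. Members called lower were 0 in every fit run, with 0 or 1 lower at an unadjusted p under 0.05. The median difference over the members stayed between 0.17 and 0.27. The differences of the 5 called members kept their sign in all fits, whereas members near 0, such as Sqle, Srebf2, Insig2, Idi1 and Acaca, changed sign in at least 1. The 3 arrays per group set the precision, and no signal over background was available for the dim members Idi1 and Fdps.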
